A study of Mus musculus with 12 samples.

Results

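Secretoglobins are small secreted proteins that pair into disulphide-linked dimers around a hydrophobic pocket, where steroids and other lipids can bind. In the mouse the family has a large branch, the androgen-binding proteins, whose dimers join an alpha subunit (the Scgb1b genes) to a beta or gamma subunit (the Scgb2b genes) and are best known from saliva and tears, where they take part in recognition between mice. Scgb1a1 encodes the club cell secretory protein of the airway, and Scgb3a1 a further secretoglobin of airway and glandular epithelia.

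The 4 genes described here, Abpb, Abpd, Scgb1a1 and Scgb3a1, were taken by name from a table of 23284 genes. They were selected on their values in null against wild-type prostate, so their own differences between genotypes are descriptions, without a test. The libraries came from whole prostate of 4-month-old mice on a hybrid 129/SvImJ and C57Bl/6J background. There were 6 libraries from mice homozygous for a null allele of the homeobox gene under study, called null here, and 6 from wild-type mice. Both groups were untreated, and the labels do not say which prostate lobes were taken or whether each library came from its own animal; p-values therefore speak of library spread, which may be technical.

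Values are expression levels on a log2 scale as the authors deposited them. How they were transformed is not stated, so a difference of 1 is about a doubling for well-expressed genes and may not be one near the floor. The depth is unknown, since no counts were given. Genes without expression scatter around a floor: over 1123 olfactory receptor genes the median value was 2.85 and the 95th percentile 3.51, and a value at or under 3.51 is called undetected below. The values are not known to be divided by gene length, so they are compared between libraries and not between genes. The libraries of each genotype fell into sets of 3 whose members lay closer to each other. Among 3633 well-expressed genes (mean 10 or more) the median difference between wild-type libraries was 0.0563 within the sets (libraries 1 to 3 and 4 to 6) and 0.109 across them. For null libraries it was 0.0659 within the sets (libraries 1, 2 and 5, and 3, 4 and 6) and 0.144 across them. As the 3 libraries of a set might share a source, calls over the 12 libraries are given again on the 4 set means. The fit of all 23284 genes was run on the 12 libraries alone.

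Sequences of the Abp branch are shown here because 3 of its genes that were at the floor in null and detected in wild-type prostate, Abpd, Gm4684 and Abpz, have starts that are much alike. RefSeq names Abpd as Scgb2b20, Gm4684 as Scgb2b7 and Abpz as Scgb2b24, all beta or gamma subunit genes of the family on chromosome 7. The stretches below run from 250 bases before to 50 bases after each gene's start, from RefSeq with build GRCm38.p6, all on the minus strand, and capitals mark TGTTCT, the reverse strand of the hexamer AGAACA that steroid receptors bind.
Abpd, chr7:33366270-33366569: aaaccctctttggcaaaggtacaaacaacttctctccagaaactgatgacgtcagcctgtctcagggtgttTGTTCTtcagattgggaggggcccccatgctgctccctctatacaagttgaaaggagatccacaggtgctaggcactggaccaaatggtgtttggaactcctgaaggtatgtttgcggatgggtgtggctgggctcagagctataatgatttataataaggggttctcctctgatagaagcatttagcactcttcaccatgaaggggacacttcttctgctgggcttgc
Gm4684, chr7:31705705-31706004: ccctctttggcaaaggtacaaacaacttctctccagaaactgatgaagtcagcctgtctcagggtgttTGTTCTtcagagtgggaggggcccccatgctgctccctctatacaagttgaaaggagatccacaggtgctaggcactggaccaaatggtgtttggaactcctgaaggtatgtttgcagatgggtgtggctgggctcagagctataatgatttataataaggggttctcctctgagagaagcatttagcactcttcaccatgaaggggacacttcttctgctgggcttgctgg
Abpz, chr7:33739246-33739545: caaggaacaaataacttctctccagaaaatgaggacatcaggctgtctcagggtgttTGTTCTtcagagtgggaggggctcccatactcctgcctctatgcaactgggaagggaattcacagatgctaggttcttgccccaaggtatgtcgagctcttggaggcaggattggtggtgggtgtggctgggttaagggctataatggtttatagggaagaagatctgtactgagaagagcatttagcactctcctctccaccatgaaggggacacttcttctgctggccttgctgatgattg

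The hexamer began 179 bases before the start in Abpd, 182 in Gm4684 and 193 in Abpz, and was found once in each stretch. It was present on either strand in 16 of 20 Scgb2b stretches in RefSeq (80.0%), in 3 of 9 Scgb1b stretches (33.3%) and in 19.0% of all 32851 stretches of this length. The Abpd and Gm4684 stretches were 96.7% identical over 303 aligned positions, and that of Abpz was 73.3% identical to that of Abpd over 315. The alpha subunit gene Abpa, which is Scgb1b27, had a stretch 46.9% identical to that of Abpd, and Scgb3a1 one that was 46.8% identical. The hexamer was absent from the stretches of Abpa and Scgb3a1, although Abpa too was near the floor in null and detected in wild-type prostate. The same stretches were searched on both strands for the full palindromic steroid receptor element, in which AGAACA is followed after 3 bases of any kind by its reverse complement (present in 0.00913% of all stretches and overlapping the hexamer), TAAGTA, a core bound by NK-class homeodomain proteins (7.59%), and TGTTTAC, a forkhead core (3.65%). None of these 3 motifs occurred in the stretches of Abpd, Gm4684, Abpz, Abpa or Scgb3a1. A match is a run of letters and not evidence that a factor binds there.

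Abpb and Abpd, the pair of androgen-binding protein genes among the members, were detected in every wild-type library and were near the floor in null prostate. Abpb stood at 2.45, 2.95, 2.59, 2.81, 2.92 and 2.69 in null libraries 1 to 6, against 8.23, 8.46 and 8.27 in wild-type libraries 1 to 3 and 10.89, 10.90 and 10.87 in wild-type libraries 4 to 6. The groups did not overlap, and all null values were in the range of undetected genes, while the wild-type libraries formed 2 levels. The mean was 2.73 ± 0.19 in null libraries and 9.60 ± 1.41 in wild-type libraries (SD, n = 6 each), a difference of -6.87.

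Abpd stood at 3.54, 3.19, 3.04, 3.28, 2.65 and 2.85 in null libraries 1 to 6, against 10.63, 10.67 and 10.63 in wild-type libraries 1 to 3 and 11.24, 11.40 and 11.19 in wild-type libraries 4 to 6. Only null library 1 lay above 3.51, by less than the null SD. The mean was 3.09 ± 0.32 in null libraries and 10.96 ± 0.35 in wild-type libraries (SD, n = 6 each), a difference of -7.87. Genes lower in null without overlap made up 15.2% of the 15096 tested genes, and 9 genes (0.0596%), Abpb and Abpd among them, were lower by at least 6 on the log2 scale. These shares come from the contrast that selected the members. Because the null values are at the floor, the size of both falls is limited by it. Measured against 3.51, the wild-type mean was 6.10 higher for Abpb and 7.45 higher for Abpd. In whole tissue, fewer cells that make a transcript and less of it in each cell cannot be told apart.

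Scgb1a1 and Scgb3a1, the airway members, lay around the floor in both genotypes. Scgb1a1 was undetected in all but 1 library of each genotype, and Scgb3a1 was borderline. Scgb1a1 ranged from 2.63 to 3.63 in null libraries (median 3.01) and from 2.84 to 3.54 in wild-type libraries (median 3.27). A single library of each genotype lay above 3.51, null library 1 and wild-type library 5. Its mean was 3.06 ± 0.39 in null and 3.23 ± 0.23 in wild-type libraries (SD, n = 6 each). Scgb3a1 ranged from 2.72 to 3.80 in null libraries (median 3.56) and from 2.79 to 3.76 in wild-type libraries (median 3.51), with 3 libraries of each genotype above 3.51. The null libraries above 3.51 were 1, 2 and 5, with a mean of 3.72, against 3.05 in null libraries 3, 4 and 6. The mean of Scgb3a1 was 3.39 ± 0.44 in null and 3.44 ± 0.34 in wild-type libraries (SD, n = 6 each). The genotypes overlapped in both genes, and neither passed the filter on low values (at least 4 in at least 6 libraries), so no difference was detectable for them here. The plot of the 4 members by library shows both patterns.

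**Figure D1:**
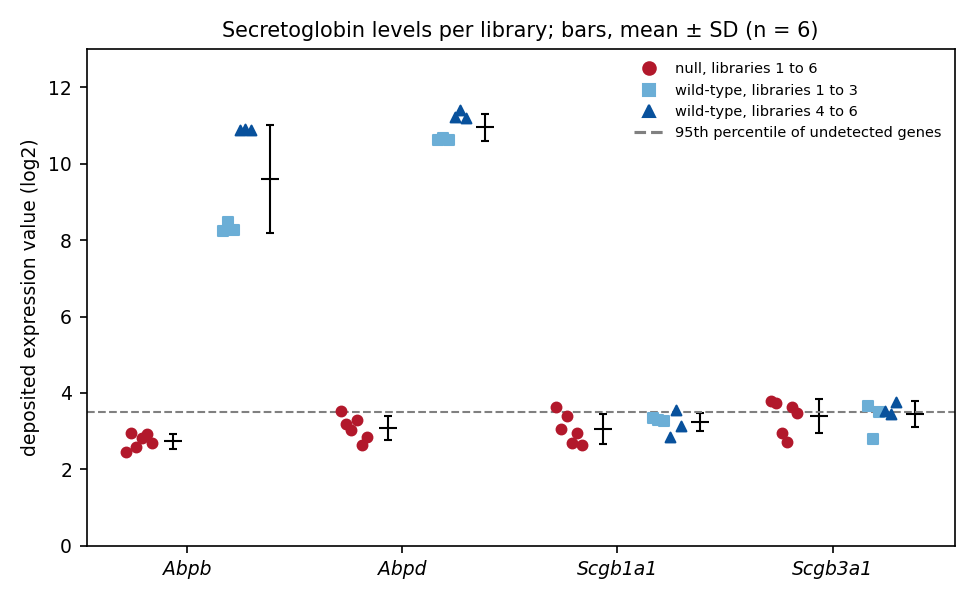
Deposited log2 expression of Abpb, Abpd, Scgb1a1 and Scgb3a1 in each library, null left of wild-type; bars give mean ± SD (n = 6) and the dashed line marks 3.51, the 95th percentile of undetected genes. Abpb and Abpd are at the floor in null libraries and well above it in wild-type libraries, where Abpb has 2 levels; Scgb1a1 and Scgb3a1 lie around the floor in both genotypes.

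The wild-type level of Abpb depended on the library set. Wild-type libraries 4 to 6 averaged 2.57 more than libraries 1 to 3, while the range within a set was 0.027 in libraries 4 to 6 and 0.24 in libraries 1 to 3. Of the 15096 tested genes, 22, Abpb included, differed by at least that much between the wild-type sets in either direction, and the median absolute difference was 0.140. Among 2652 tested genes within 0.5 of its wild-type mean, the median SD between wild-type libraries was 0.0877, against 1.41 for Abpb. Abpd was steadier than Abpb, with wild-type libraries 4 to 6 higher by 0.63. That difference was reached by 945 tested genes and lay under the 95th percentile of 0.711. Among 1578 tested genes within 0.5 of the wild-type mean of Abpd, however, the median SD between wild-type libraries was 0.0768, against 0.354 for Abpd. Only 0.824% of them, Abpd included, had an SD that large. Null means in libraries 1, 2 and 5 and in libraries 3, 4 and 6 were 2.77 and 2.70 for Abpb and 3.12 and 3.06 for Abpd, closer than the spread within a set. Both genes were thus lowest in null libraries, intermediate in wild-type libraries 1 to 3 and highest in wild-type libraries 4 to 6, with no overlap between these 3 levels. Against wild-type libraries 1 to 3 alone the difference of the null mean of Abpb was -5.59, and against libraries 4 to 6 alone -8.15; for Abpd the values were -7.55 and -8.19.

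**Figure D2:**
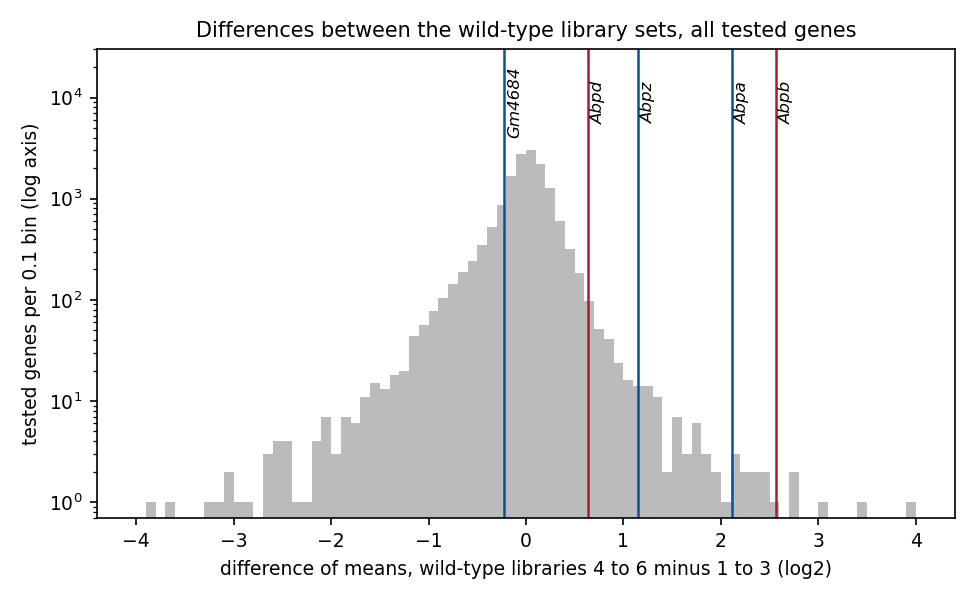
Number of tested genes (log axis) by the difference between the means of wild-type libraries 4 to 6 and 1 to 3, in bins of 0.1 on the log2 scale; lines mark Abpb and Abpd (red) and Abpa, Abpz and Gm4684 (blue). Abpb at 2.57 and Abpa at 2.11 lie in the far right tail, and Gm4684 at -0.22 lies left of 0.

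Further androgen-binding protein genes showed the same absence from null prostate. RefSeq lists 48 genes and pseudogenes named Scgb1b or Scgb2b, all on chromosome 7, and 14 rows of the table belonged to this branch, Abpb and Abpd included. All 14 had null means under 3.51. By single libraries, 1 null library lay above 3.51 in each of Abpd, Abpa, Abpe and Scgb2b1-ps, and 3 in Gm12776. In wild-type prostate 5 rows (Abpb, Abpd, Gm4684, Abpa and Abpz) were detected in all 6 libraries, 7 in some libraries and 2 in none. Of the 7, only Gm5325 and Gm5326 had wild-type means above 3.51 (5.93 and 4.79). Beside Abpb and Abpd, which were selected on this contrast, genotypes did not overlap, with null lower, in 4 of the other 12 rows (Gm4684, Abpa, Abpz and Gm5326), against 10.1% of all rows of the table. The fixed rule for family rows gave 14 beside the members, of which 3 passed the filter, each through its wild-type values alone, so that they had to differ and their filtered test is not given.

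Gm4684 (Scgb2b7) stood at 2.09 to 3.48 in null libraries (median 2.64) and at 10.31 to 10.63 in wild-type libraries (median 10.52). The difference was -7.79. Abpa (Scgb1b27), the alpha subunit first found in saliva, stood at 2.33 to 3.64 in null libraries (median 2.83) and at 5.27 to 7.60 in wild-type libraries (median 6.36). The difference was -3.51. Abpz (Scgb2b24) stood at 2.60 to 3.31 in null libraries (median 3.03) and at 5.04 to 6.57 in wild-type libraries (median 5.85). The difference was -2.86. Null values of these genes were under 3.51 except Abpa in library 3 (3.64), and no genotype ranges overlapped.

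The wild-type sets divided the branch. Libraries 4 to 6 were higher than libraries 1 to 3 by 2.11 for Abpa and by 1.14 for Abpz, the direction of Abpb, whereas for Gm4684 that difference was -0.22. Gm5325 (Scgb1b3), an alpha subunit gene, stood at 3.1, 3.53 and 6.66 in wild-type libraries 1 to 3 and at 7.70, 7.28 and 7.34 in libraries 4 to 6, with null libraries at 2.40 to 3.43. Library 3 thus differed by over 3 log2 units from libraries 1 and 2 of its own set. Gm5326 (Scgb1b29) stood at 4.79, 6.56 and 5.14 in wild-type libraries 1 to 3 and at 3.37, 5.38 and 3.48 in libraries 4 to 6, with null libraries at 2.46 to 3.02. Its values scattered within both wild-type sets.

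Near-identical copies limit which gene a value belongs to, since no source used here says how reads were divided among them. In GENCODE M21, 58.0% of the 50-base stretches of the Scgb2b20 transcript (Abpd) also occur in other genes and 51.3% of all its stretches occur in Scgb2b7 (Gm4684), and the best pair of transcripts of these genes is 98.1% identical. All stretches of Scgb1b29 (Gm5326) occur in Scgb1b7. Of those of Scgb1b3 (Gm5325) 27.8% occur in other genes, and of those of Scgb2b19 (Gm5894) 63.1% do. For Abpa, Abpz, Scgb1a1 and Scgb3a1 the share was 0%. Values of Abpd, Gm4684, Gm5325, Gm5326 and Gm5894 are therefore uncertain as to the copy. Abpb was not matched in RefSeq and was not looked up.

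**Figure D3:**
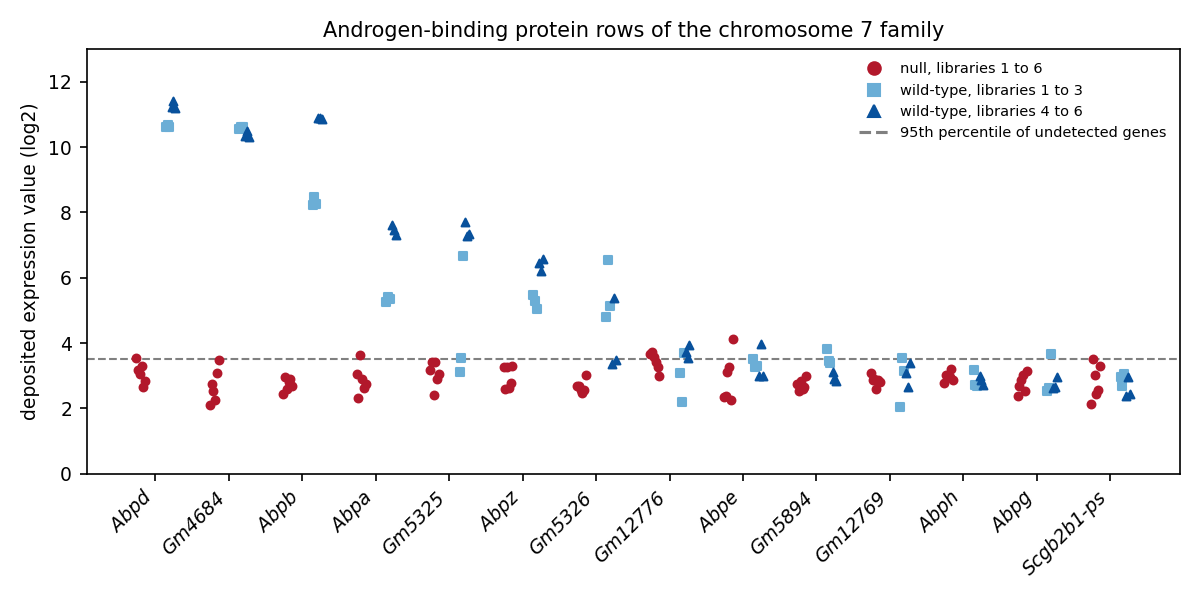
Deposited log2 expression in each library for the 14 rows of the androgen-binding protein branch, null left of wild-type. The dashed line marks 3.51, and genes are ordered by their wild-type mean, which is not known to be divided by gene length. Null values lie around the floor in every row, and Abpb, Abpd, Gm4684, Abpa and Abpz lie above it in all wild-type libraries.

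In a fit of all 23284 genes without the filter, 6 family rows beside the members were called lower: Gm4684, Abpa, Abpz, Gm5325, Gm5326 and Gm5894. This fit was run on the 12 libraries alone, so its calls were not checked over set means. Those that the filter had removed were Gm5325 (difference -2.87, limma adjusted p = 0.0213), Gm5326 (-2.12, limma adjusted p = 0.00233) and Gm5894 (-0.53, limma adjusted p = 0.0365). The background was 16.2% of genes called lower and 33.8% called in either direction. Gm5894 (Scgb2b19) stood at 2.54 to 2.998 in null libraries and at 2.85 to 3.83 in wild-type libraries, at the floor in both. Scgb3a2, an airway secretoglobin, moved the other way, at 3.95 to 5.04 in null libraries (median 4.12) and 2.73 to 3.84 in wild-type libraries (median 3.53). These ranges did not overlap. Its difference was 0.83 (SE 0.219, limma adjusted p = 0.00632 without the filter), against 17.7% of all genes called higher. Genotypes did not overlap, with null higher, in 17.4% of the tested genes. Scgb3a2 did not pass the filter and is not among these, so that share is not a like comparison. The other rows, Abpe, Abpg, Abph, Gm12769, Gm12776, Scgb1c1 and Scgb2b1-ps, had means between 2.75 and 3.44 in both genotypes.

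The nearest table rows to Abpd in RefSeq order were all secretoglobins: Gm5894, Gm5326 and Gm4684 before it and Scgb2b1-ps, Abpz and Gm12769 after it. The nearest rows on either side of the chromosome 7 branch, outside it, included Gramd1a on one side and Wtip, Uba2 and Pdcd2l on the other, leaving out Gm10640, which was not tested. Gramd1a rose by 0.51 (limma adjusted p = 7.79e-05, and 0.0423 over set means). Wtip fell by 0.24 (adjusted p = 0.000970) and Pdcd2l fell by 0.22 (adjusted p = 0.00590), both calls that were lost over set means (0.157 and 0.208). Uba2 (-0.019, adjusted p = 0.734) was not called. All of these were detected in both genotypes. Beside Scgb1a1, the asparaginase-like gene Asrgl1 fell by 1.82 (limma adjusted p = 4.11e-06, and 0.0159 over set means). Its means were 9.67 ± 0.36 in null and 11.49 ± 0.33 in wild-type libraries (SD, n = 6 each). Ahnak, also beside Scgb1a1, rose by 0.61 (limma adjusted p = 1.97e-05, and 0.0366 over set means). Beside Scgb3a1, Cnot6, a subunit of the CCR4-NOT deadenylase, rose by 0.998 (limma adjusted p = 2.85e-06, and 0.0217 over set means).

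The tested genes whose values were most like those of Abpb over the 12 libraries were Pappa2, Col6a4, Pdzk1, Muc19 and Cldn10, with Pearson r of 0.998, 0.997, 0.996, 0.995 and 0.994. They share with Abpb a difference between genotypes and a difference between the wild-type sets, which together set these coefficients. Muc19, a gel-forming mucin of salivary glands, stood at 2.41 to 3.73 in null libraries, against 7.71, 7.85 and 7.85 in wild-type libraries 1 to 3 and 9.43, 9.58 and 9.58 in libraries 4 to 6. Like Abpb, it was near the floor in null prostate and had 2 wild-type levels. Pappa2, a protease of insulin-like growth factor binding proteins, averaged 6.92 in null libraries and 9.79 in wild-type libraries, and Pdzk1, a scaffold of membrane transporters, 6.96 and 10.19. For Abpd the genes were Hdac9 (r = 0.999), Gpr37l1 (0.998), Sbp (0.997), Mug1 (0.997) and Slc26a4 (0.997). Sbp, a spermine-binding secretory protein, averaged 4.07 in null libraries and 19.12 in wild-type libraries, and Slc26a4, an anion exchanger, 6.42 and 11.41. Over the 6 wild-type libraries alone, the closest genes to Abpb were Saa3, Zdhhc3, Mylip, Aldh1a2 and Srsf5, and to Abpd were Dst, Hivep1, Arhgef5, Tmem150c and Dsp, with r between 0.997 and 0.9998; here the difference between the sets sets r. Saa3, an acute-phase serum amyloid gene, averaged 9.51 in wild-type libraries 4 to 6 and 5.55 in libraries 1 to 3.

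**Figure D4:**
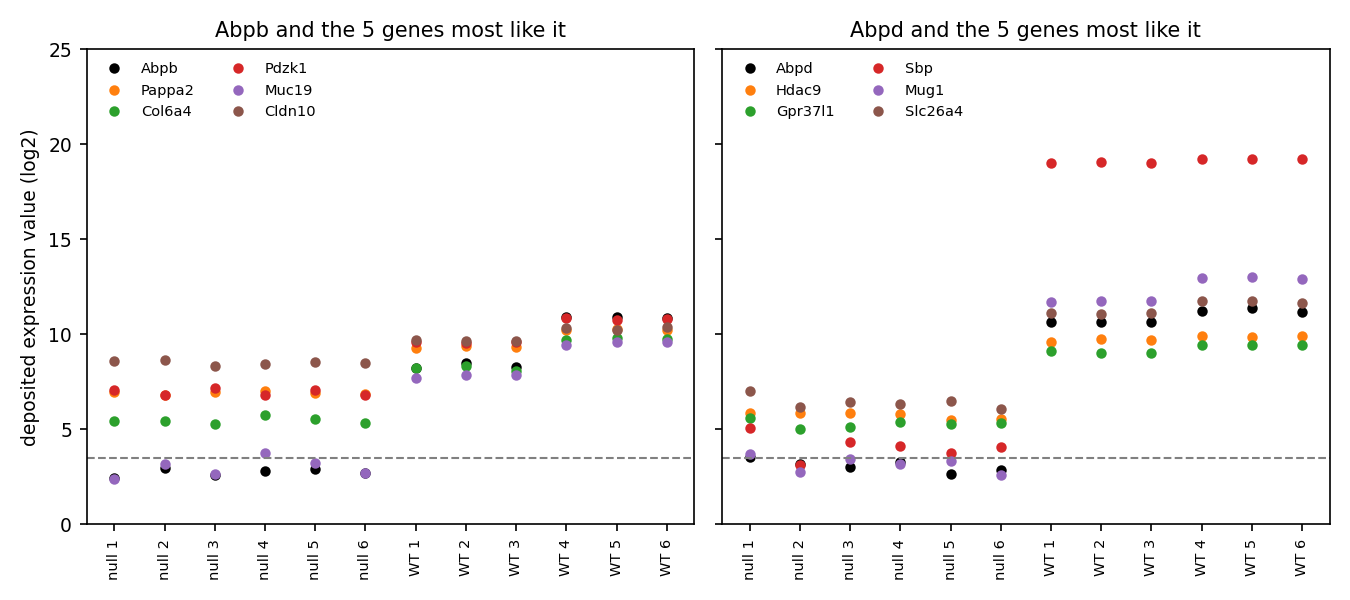
Deposited log2 expression per library of Abpb (left) and Abpd (right), in black, with the 5 tested genes of highest Pearson r over 12 libraries in colour; null libraries stand left of wild-type (WT) libraries and the dashed line marks 3.51. Wild-type libraries 4 to 6 lie above libraries 1 to 3 by 0.68 to 1.72 for the genes near Abpb and by 0.19 to 1.23 for those near Abpd.

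Genes that act with secretoglobins elsewhere were read from the same fit, where the background of calls was 53.1% of tested genes for the 12 libraries (25.1% lower, 28.0% higher) and 14.5% for set means (6.96% lower, 7.58% higher), and the median difference was 0.012. Of 10 tested regulators of airway secretoglobins, 2 rose, 2 fell and 6 were not called (40.0% called, median 0.019). Spdef, an ETS factor of secretory epithelia, fell by 0.50 (limma adjusted p = 1.64e-07, and 0.0222 over set means). Cebpa rose by 0.73 (adjusted p = 0.00520) and Cebpd fell by 0.53 (adjusted p = 0.0203), and neither passed over set means (0.170 and 0.256). Foxa2 and Nkx2-1, which drive Scgb1a1 in lung, were not tested, with means of 2.89 and 2.67 in null and 2.73 and 2.95 in wild-type libraries, at the floor.

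Of 5 tested genes for proteins that bind secretoglobins, Sdc1, which encodes syndecan 1, rose by 0.73 (limma adjusted p = 3.10e-07, and 0.0147 over set means) and Lmbr1l fell by 0.17 (adjusted p = 0.0285, and 0.360 over set means), with 3 not called (40.0% called, median -0.0039). Of 4 tested secreted phospholipases A2, enzymes that Scgb1a1 is known to inhibit, Pla2g12a rose by 0.29 (limma adjusted p = 0.00169) and Pla2g3 by 0.39 (adjusted p = 0.0298), and Pla2g2d fell by 0.99 (adjusted p = 0.00312), with a median of -0.0080 and 75.0% called. None of these 3 passed over set means, where limma adjusted p was 0.154, 0.259 and 0.123. Of 5 tested transglutaminases, which cross-link proteins and use Scgb1a1 as a substrate, 4 fell and 1 was not called (80.0% called, median -0.60). F13a1, a coagulation factor subunit also made by macrophages, fell by 0.83 (limma adjusted p = 1.26e-05, and 0.0312 over set means), Tgm1 fell by 0.65 (adjusted p = 0.000540), Tgm4, the prostate enzyme, fell by 0.39 (adjusted p = 0.00291) and Tgm2 fell by 0.22 (adjusted p = 0.0259). The last 3 did not pass over set means (0.0931, 0.285 and 0.235), and Tgm4 was not called after quantile normalization (-0.12, adjusted p = 0.413).

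Genes of club-like epithelium, the cell class in which human prostate and airway express secretoglobins, moved in both directions. Of 13 tested, 2 rose, 6 fell and 5 were not called (61.5% called, median -0.46), and over set means 2 rose and 3 fell. Pigr, the epithelial transport receptor for polymeric immunoglobulins, stood at 7.11 to 9.12 in null libraries, against 13.80 to 13.82 in the first wild-type set (1 to 3) and 15.29 to 15.34 in the second (4 to 6). It fell by 6.09 (limma adjusted p = 4.75e-07, and 0.0104 over set means). Mmp7, a matrix metalloprotease of secretory epithelia, fell by 3.28 (adjusted p = 1.71e-05, and 0.0285 over set means) and Krt7, a keratin of simple epithelia, fell by 1.98 (adjusted p = 8.11e-06, and 0.0249 over set means). Both were higher in wild-type libraries 4 to 6 than in libraries 1 to 3, as Abpb was, with means of 15.17 against 13.66 for Mmp7 and 9.32 against 8.34 for Krt7. Psca, prostate stem cell antigen, rose by 1.54 (adjusted p = 4.30e-05, and 0.0102 over set means). Among the airway genes of the list, Cyp2f2, a cytochrome P450 of airway club cells, was well detected at means of 10.62 in null and 10.65 in wild-type libraries and was not called (limma adjusted p = 0.788). The mucin gene Muc4 averaged 4.81 in null and 4.21 in wild-type libraries and was not called either (limma adjusted p = 0.346). Its null libraries formed 2 levels, with means of 6.02 in libraries 1, 2 and 5 and 3.59 in libraries 3, 4 and 6. Bpifa1, Bpifb1, Muc5b and Sftpd had means under 3.51 in both genotypes.

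Markers of other tissues that express secretoglobins or lie near the prostate were looked at beside the members. Of 10 salivary and lacrimal gland genes in the table, 2 were tested: Amy1 was not called (0.20, limma adjusted p = 0.110), and Muc19, with a difference of -5.68, passed the filter through its wild-type values alone. The log2 of their summed linear values was 8.06 to 8.69 in null and 8.76 to 9.999 in wild-type libraries, and the means of Prol1, Dcpp1, Dcpp2, Dcpp3 and Bpifa2 were under 3.51 in both genotypes. Untested genes of this list with higher means in null were the peroxidase Lpo (5.27 in null and 3.62 in wild-type libraries), Smr2 (3.61 and 3.07) and Smr3a (3.53 and 2.95), all with overlapping genotypes. Lpo averaged 6.72 in null libraries 1, 2 and 5 and 3.82 in null libraries 3, 4 and 6. Of 12 epididymis and vas deferens genes, 1 was tested, Adam7, which stood at 2.53 to 3.77 in null libraries and at 7.85 to 8.60 in wild-type libraries and passed the filter through the wild-type values alone. The lipocalins Lcn5, Lcn8, Lcn9 and Lcn10, which define the epididymis, had means under 3.51 in both genotypes. Of the untested genes, Akr1b7 averaged 5.58 in null (up to 8.04) and 3.52 in wild-type libraries. Its mean was 7.27 in null libraries 1, 2 and 5 and 3.88 in null libraries 3, 4 and 6. Cst11 stood at 3.67 to 4.22 in null and 2.56 to 3.11 in wild-type libraries, without overlap. The list's summed level was 6.68 to 8.49 in null and 8.28 to 8.90 in wild-type libraries. Of 5 airway ciliated and alveolar genes, Ccdc39 alone was tested and was not called (adjusted p = 0.976). Foxj1, a regulator of ciliated cells, averaged 3.88 in both genotypes and was above 3.51 in all 12 libraries, and Sftpa1, Sftpb and Sftpc had means under 3.51 in both.

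Seminal vesicle genes moved against the Abp branch. Of 8 tested, Svs3a, Svs3b, Svs6 and Sva passed the filter through null values alone; the other 4, Svs2, Svs4, Svs5 and Ceacam10, rose in null over 12 libraries, and of these Svs4 and Ceacam10 rose over set means. The log2 of the list's summed linear values was 16.8 to 20.3 in null prostate, against 11.6 to 11.7 in the first wild-type set and 8.02 to 8.06 in the second. The wild-type set with the lower summed level was that with the higher Abpb. Svs2 (11.19 in wild-type libraries 1 to 3 and 4.62 in libraries 4 to 6), Svs5 (9.21 and 4.15) and Svs4 (5.35 and 3.87) went with the sum. Ceacam10 went the other way (6.52 and 7.31), and Svs1, Svs3a, Svs3b, Svs6 and Sva had wild-type means under 3.51. Among null libraries the summed level varied by over 3 log2 units. Abpb was undetected in all of them (2.45 to 2.95), so its null values cannot show whether it follows that level. The part of the seminal vesicle signal in the levels of Abpb and Abpd was not tested. Other cell classes moved too: 6 of 7 basal genes and 2 of 3 tested urothelial genes rose, 7 of 7 macrophage genes fell, and of 9 tested prostate secretory genes 4 rose and 5 fell, all over 12 libraries. Over set means 4 basal, 2 urothelial and 1 prostate secretory gene rose, and 1 macrophage and 4 prostate secretory genes fell. Their part in the levels of the members was not tested either. Of 8 tested luminal genes 4 rose and 4 fell over 12 libraries, and over set means Prom1 rose by 0.80 (limma adjusted p = 0.0448) and Cd24a fell by 0.80 (adjusted p = 0.0306). Luminal transcripts were present in both genotypes, with a summed level of luminal markers of 15.9 to 16.2 in null and 15.96 to 16.2 in wild-type libraries.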

How the data were processed

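Poly-A selected RNA of whole prostate was sequenced from TruSeq libraries on a HiSeq, per the labels. Cufflinks 2.0.2, DESeq, TopHat2 2.0.4, CASAVA 1.8.2 and build mm9 are listed, without roles, in the submitters' processing notes. The authors deposited values on a log2 scale that behave as if variance-stabilised. How they were transformed is not stated in any source used here, and neither counts nor depths came with them.

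Testing used limma 3.58.1 (R 4.3.3; trend and robust options on) for the 15096 of 23284 genes that reached 4 in 6 or more libraries, with Benjamini-Hochberg adjustment over all tested genes and a threshold of 0.05. The fit was tested on simulated data. Members and lists were chosen with earlier results of these data known, and the library sets were found in the data. Named genes were the members, other secretoglobin rows, the up to 4 called members of a list with smallest adjusted p (or its 2 highest genes, where fewer were called), the 5 genes of highest Pearson r to Abpb and Abpd, and up to 3 neighbours on each side in RefSeq order; the genes flanking the chromosome 7 branch were added after the data were seen. No genes were sought for Scgb1a1 and Scgb3a1 by likeness, since their values are at or near the floor. Where a gene is named outside this rule, it was chosen after its values were seen. Family names came from RefSeq GRCm38.p6, whose build differs from mm9. Its coordinates served only for the order of neighbouring genes and for the promoter stretches, and values were matched to genes by name. Promoters were matched by name, with none for Abpb and Scgb1a1. The level of the deleted gene, and values of some other genes that the rule names, are not reported here. Alternatives were quantile normalization, upper quartile scaling, no filter, a filter at 5, limma without trend and robust moderation, medians, set means, and libraries left out.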

Additional observations from a re-analysis of the deposited data

Results flagged for a closer look

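In 2 of 36 groups of 6 libraries looked at (18 family rows in each genotype), a single library stood apart from the other libraries of its group by Dixon's criterion; chance gives about 1 in 20. Scgb3a1 stood at 2.79 in wild-type library 2, the lowest of its group, while the others stood at 3.44 to 3.76. Scgb3a2 stood at 5.04 in null library 2, the highest of its group, while the others stood at 3.95 to 4.23. Both genes are close to the level of undetected genes.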

How the results depend on the processing

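The differences of Abpb, Abpd, Scgb1a1 and Scgb3a1 moved by less than 1 SD between replicates under every alternative run, except that of Abpb without wild-type libraries 1 to 3 (-8.15) and without wild-type libraries 4 to 6 (-5.59). With each library left out in turn they ranged from -7.15 to -6.61 for Abpb, from -7.96 to -7.78 for Abpd, from -0.29 to -0.086 for Scgb1a1 and from -0.18 to 0.080 for Scgb3a1. Over set means 2195 genes were called, 1051 of them lower, against 8013 and 3789 over 12 libraries, and 31 of the list genes against 62. Without the filter 6 other secretoglobin rows were called lower. The 3 of them that passed the filter did so through wild-type values alone, so no filtered count is set beside this. Among the list genes named by the rule, calls lost with 1 library left out were those of Lmbr1l (null 1, 2 or 5, wild-type 4, 5 or 6; adjusted p up to 0.0691), Pla2g3 (null 1 or 2, wild-type 2, 5 or 6; up to 0.0692) and Tgm2 (null 2, 4 or 6, wild-type 1; up to 0.0586). Over all list genes, 59 to 62 were called with 1 library left out, so genes not named by the rule lost calls too. No paired analysis was possible because the labels give the genotypes no shared replicate numbers. The floor of the deposited scale limits every value for genes that end near it, and without depths no finer limit can be set.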
